A study of Mus musculus with 12 samples.

Results

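Cytosolic ribosomal protein genes were described in sorted mouse back-skin cells as 50 genes, measured by 106 probe sets, of 18193 genes in all. They are the genes whose symbols begin with Rpl or Rps followed by a digit, together with Rpsa, Rplp0 and Rplp2, on probe sets mapped to 1 gene symbol. Rps6k kinases and pseudogene symbols were left out. A further 110 probe sets of such genes carry several symbols and were left out too, which removed 31 genes altogether, among them Rpl3, Rpl10, Rpl36a and Rplp1. Of the 50 genes, 43 encode core subunits (22 of the large and 21 of the small subunit). The other 7 are paralogues or genes that share the name pattern: Rpl3l, Rpl7l1, Rpl22l1, Rpl39l, Rps4l, Rps27l and Rps19bp1.

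The study measured total RNA on 12 one-colour expression arrays, 1 array per sample, from female mice of a mixed C57BL/6 and CD1 background aged 72 to 74 days after birth. Hair germ cells (HG, a small cluster at the base of the resting follicle), bulge cells (the stem cell niche above it) and total skin keratinocytes (TK) were sorted with a Rosa26-YFP reporter, P-cadherin and CD34. Each fraction came from mice labelled Het for TßRII, the type II TGF-beta receptor encoded by Tgfbr2, and from mice labelled as its conditional knockout (cKO), once in set 1 and once in set 2. Set 1 hair germ and bulge cells are labelled quiescent in both genotypes. Those of set 2 are labelled activated in Het mice and aberrantly quiescent in cKO mice, while keratinocytes carry no such state. The Het animals are no wild type, both genotypes carry the reporter, and the sources used here name neither the Cre driver nor how many animals were pooled. Each combination of fraction, genotype and set was therefore 1 sample, and nothing in the labels says that they came from separate animals, so p-values measure only the spread between these samples.

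The ribosome joins a large subunit, which forms the peptide bonds, to a small subunit, which decodes the mRNA. Its proteins are needed in near-equal amounts, and their mRNAs are among the most abundant in a cell. Many begin with a terminal oligopyrimidine (TOP) tract, through which mTOR signalling controls their translation. Stem cells of the resting follicle are known for low protein synthesis.

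The labelled fractions were checked first. Cd34, the surface marker of the bulge sort, lay between 14.42 and 14.79 on the log2 signal scale on the 4 bulge arrays, above 7.65 to 8.69 on the HG arrays and 10.03 to 11.30 on the TK arrays. Tgfbr2 lay between 10.35 and 12.39 on the 6 Het arrays and between 11.31 and 12.14 on the 6 cKO arrays, so it was not lower in cKO. No source used here places the probes inside or outside the deleted part, so this gene checks no label. Other cell types moved with the fractions. Over the 9 measured of 10 fibroblast markers the mean log2 signal was 12.87 to 14.01 in bulge, 9.84 to 10.99 in HG and 10.35 to 11.55 in TK. Melanocyte markers (8 of 8 measured) lay at 9.78 to 10.35 in HG, 7.55 to 8.47 in bulge and 6.95 to 8.31 in TK. Epidermal differentiation markers (10 of 10) lay at 11.77 to 12.28 in TK, above both other fractions. Genes known to respond to dissociation (14 of 14) lay at 10.44 to 11.78 in HG, 11.09 to 13.02 in bulge and 11.36 to 13.64 in TK. The part of these cells and of dissociation in the results below was not tested.

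Promoter sequence was found in the RefSeq table for 44 of the 50 genes (build GRCm38.p6, 250 bases before to 50 after the annotated start, taking the start farthest upstream where a gene has several), and the other 6 were Rpl7, Rpl8, Rps14, Rps20, Rps29 and Rps4l. The windows below run from 100 bases before the start through its first 10 transcribed bases. They show 3 genes that shift together across the arrays (Rps4x, Rplp0, Rpl38), the pair that was higher in HG than in bulge (Rpl12, Rpl14), and Rpl39 beside its paralogue Rpl39l, the member with the largest difference between fractions. Capitals mark matches on either strand to any of 6 motifs: CCGGAAG (the ETS and GABP core), CTTTCC (a pyrimidine hexamer), GGGCGG (the GC box), AAGATGG (the YY1 core), TATAAA (the TATA box) and CACGTG (the E-box). No motif contains another.
Rps4x (chrX:102189382-102189491, minus strand): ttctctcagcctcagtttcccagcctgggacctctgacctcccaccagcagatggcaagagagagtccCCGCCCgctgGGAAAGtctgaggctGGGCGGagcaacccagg
Rplp0 (chr5:115559367-115559476, plus strand): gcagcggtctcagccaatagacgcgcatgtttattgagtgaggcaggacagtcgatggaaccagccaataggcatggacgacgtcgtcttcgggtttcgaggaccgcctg
Rpl38 (chr11:114668480-114668589, plus strand): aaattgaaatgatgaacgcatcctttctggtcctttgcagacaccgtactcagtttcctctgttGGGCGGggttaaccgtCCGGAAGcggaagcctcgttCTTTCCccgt
Rpl12 (chr2:32961612-32961721, plus strand): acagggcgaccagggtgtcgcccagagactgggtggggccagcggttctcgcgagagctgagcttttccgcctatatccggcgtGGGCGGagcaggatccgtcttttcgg
Rpl14 (chr9:120571417-120571526, plus strand): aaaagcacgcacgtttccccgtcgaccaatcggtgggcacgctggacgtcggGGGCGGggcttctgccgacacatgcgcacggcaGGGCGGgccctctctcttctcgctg
Rpl39 (chrX:37085213-37085322, minus strand): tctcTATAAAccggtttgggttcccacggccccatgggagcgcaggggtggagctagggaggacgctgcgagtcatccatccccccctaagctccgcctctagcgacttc
Rpl39l (chr16:10170128-10170237, plus strand): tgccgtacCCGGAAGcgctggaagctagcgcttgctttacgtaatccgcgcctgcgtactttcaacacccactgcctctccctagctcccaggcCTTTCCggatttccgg

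Over the whole 300 bases, CCGGAAG was found in 21 of the 44 member promoters (47.7%) and in 9.1% of 27025 promoters, 1 per gene. GGGCGG stood in 56.8% of the members and 35.9% of all promoters, CTTTCC in 43.2% and 26.4%, and AAGATGG in 18.2% and 6.5%. TATAAA (13.6% and 14.2%) and CACGTG (6.8% and 7.2%) were found about as often in both. A run of at least 8 C or T on the gene's own strand within 20 bases of the annotated start, the letters of a TOP tract, was present in 19 members (43.2%) and in 15.9% of all promoters. Rpl39l and Rpl39 both hold CCGGAAG in their 300 bases, while Rpl12 and Rpl14 hold GGGCGG and no CCGGAAG. These matches describe the letters and not binding.

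On the arrays, 48 of the 50 genes lay above the pooled median signal (84.7) on all 12 arrays and were tested. Rps16, a small subunit protein, lay at the floor (a signal of 20.7, log2 4.37) on all 12 arrays. Rpl3l, a muscle paralogue of Rpl3, lay at the floor on 11 and read 5.16 in cKO bulge set 1. Both read only as a bound, and neither was tested. The core genes fell into 34 bright ones, with log2 signals above 14 on all arrays (17 large and 17 small subunit), and 8 dimmer ones: Rpl12, Rpl14, Rpl27a, Rpl37, Rpl39, Rps25, Rps27 and Rps6. Signals of different probe sets are not comparable as amounts, so this split describes the probe sets.

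The bright genes moved as 1 block. Their median log2 signal was 16.15, 15.36, 15.93 and 16.34 in HG, given here and throughout in the order Het set 1, Het set 2, cKO set 1 and cKO set 2. In bulge it was 15.98, 16.29, 16.57 and 16.13, and in TK it was 15.28, 15.50, 15.59 and 15.61. All 4 bulge arrays lay above all 4 TK arrays, and HG spread over both, with the activated HG of Het set 2 down among the keratinocytes. Over the 12 arrays 32 of the 34 bright genes followed the median of the other core genes with a Pearson r above 0.9. The exceptions were Rps9 (0.752) and Rpl27 (0.878). The points share the array and its scaling, so r is a description only. The dimmer core genes ranged from -0.327 (Rpl12) to 0.834 (Rpl27a).

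Other bright genes shared part of this movement. The 29 other genes of mean log2 signal over 15 had array medians from 14.72 (Het HG set 2) to 15.76 (cKO bulge set 1). Their median difference had the sign of the bright core genes in bulge against TK (0.41 beside 0.69) and in HG against bulge (-0.34 beside -0.28). In HG against TK it was 0.03, with 18 of 29 above 0, beside 0.45 with 34 of 34 above 0 in the bright core genes. The 90th percentile of an array was never under 10.66 or over 10.74. The median probe set also differed between arrays, from 6.00 in Het HG set 2 to 6.77 in cKO bulge set 1, with TK at 6.03 to 6.34 and bulge at 6.32 to 6.77. The log2 signal that 1 in 1000 probe sets exceeded was 15.27 to 15.67 in TK, 16.03 to 16.66 in bulge and 15.39 to 16.44 in HG. Ribosomal protein genes hold most of the brightest probe sets: 37 of the 100 brightest were of members and 52 more were of ribosomal protein genes that share their probe set with another symbol. Quantile normalization, which gives all arrays the same distribution and so removes by construction a shift shared by the brightest probe sets, brought the median of the bright genes to between 15.90 and 16.01 on all arrays. The median SD of a bright gene over the 12 arrays dropped from 0.402 to 0.078. Whether the block shift lies in the cells or in the range of the arrays cannot be told apart with these scalings, so both are given below.

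**Figure D1:**
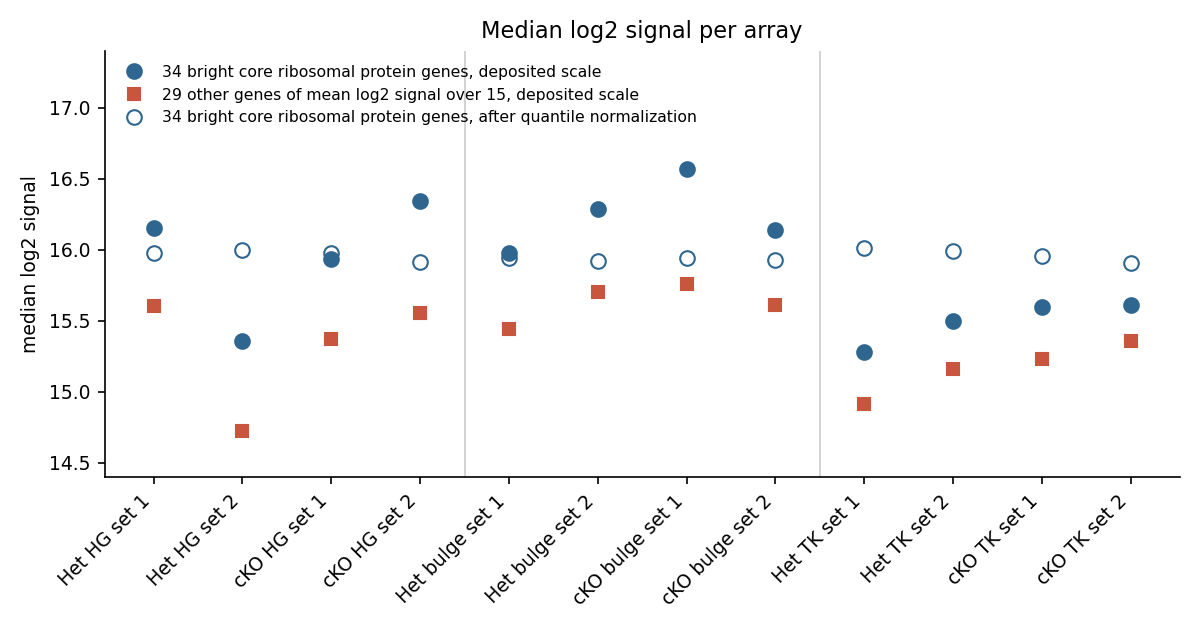
Median log2 signal per array of the 34 bright core ribosomal protein genes (filled circles), of the 29 other genes of mean log2 signal over 15 (squares), both on the deposited scale, and of the bright core genes after quantile normalization (open circles). Arrays are grouped by fraction. On the deposited scale the bright genes run from 15.28 (Het TK set 1) to 16.57 (cKO bulge set 1) and the other bright genes from 14.72 to 15.76, while the normalized medians lie between 15.90 and 16.01.

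The comparison of bulge with TK asks what sets the stem cell niche apart from skin keratinocytes. The sample titles do not say whether total skin keratinocytes leave out bulge and HG cells. Comparisons with TK may therefore set a part against a whole. On the deposited scale 27 of 48 members rose in bulge (limma, adjusted p below 0.05) and none fell, where 13.8% of all 12749 genes tested rose and 10.5% fell. The 27 were 25 bright core genes, Rpl27a and Rpl39l, with 13 core genes from each subunit. The median difference of the 42 core genes tested was 0.66 (log2), against 0.05 over all genes. In sorted bulk samples fewer cells of a type and less RNA per cell cannot be told apart. By pair of genotype and set it was 0.68, 0.75, 0.85 and 0.40 in Het set 1, Het set 2, cKO set 1 and cKO set 2. The 4 bulge arrays all exceeded the 4 TK arrays for 35 members, where 15.3% of all genes did. Among the 29 other bright genes 11 rose.

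After quantile normalization 2 of the 48 rose, Rpl39l and Rpl27a, and none fell, where 12.2% of all genes rose and 10.9% fell. The core median was then -0.04, with 17 of 42 core genes above 0. The fractions did not overlap for 14 members, counting both directions. All bulge arrays exceeded all TK arrays for 6 (13.5% of all genes): Rpl27a, Rpl37a, Rpl39l, Rpl41, Rps14 and Rps26. They were all below them for 8 (12.1% of all genes): Rpl10a, Rpl22, Rpl27, Rps18, Rps19, Rps24, Rps3a1 and Rpsa. Both counts lie near those shares, and the gaps of the bright genes were small. Rps24, for example, read 15.94 to 16.02 in bulge and 16.05 to 16.09 in TK. The number called on the deposited scale also moved with single arrays. It was 5 without cKO bulge set 1, 8 without Het TK set 1, 8 without cKO TK set 1, 9 without Het bulge set 2 and 11 without cKO TK set 2, with 1 member falling without Het TK set 1 and 1 without cKO TK set 2. No share of all genes was taken for the fits without 1 array, so their counts show only a dependence on single arrays. Relative to the rest of the core genes (arrays centred on their median, chosen after seeing the data), 2 members rose and 10 fell, where 4.74% of all genes rose and 40% fell. Rpl39l was then at 1.42, Rpl12 at -1.22, Rps4l at -1.16 and Rpl14 at -1.11.

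Rps4x, an X-linked small subunit protein, had the largest difference of the bright genes. Its log2 signal was 16.35, 16.66, 16.92 and 16.38 in bulge and 15.48, 15.51, 15.87 and 15.62 in TK, with no overlap. The difference of 0.96 (SE 0.221, limma adjusted p = 0.00741, higher in 4 of 4 pairs) became 0.16 after quantile normalization (adjusted p = 0.327). Rps29, a zinc-finger protein of the small subunit, read 16.54, 16.89, 17.24 and 16.74 in bulge and 15.71, 15.86, 16.05 and 15.99 in TK. Its difference of 0.95 (SE 0.229) was 0.00 after normalization. There every bulge and TK array read 16.47, a value set by the scaling, so the 0.00 says nothing about this gene. Rpl38, named for the promoter shown above after its values were seen, read 16.24, 16.60, 16.90 and 16.39 in bulge and 15.43, 15.66, 15.83 and 15.80 in TK (difference 0.85, SE 0.222, and 0.04 after normalization). These bright genes all kept bulge above TK on the deposited scale and lost most of the difference with the scaling. Rpl37a differed by 0.92 (SE 0.231) before and 0.12 after. Rpl41, the smallest ribosomal protein, differed by 0.93 (SE 0.224) on its brightest probe set, 0.20 after normalization, and -0.36 where probe sets that can match several transcripts were left out.

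**Figure D2:**
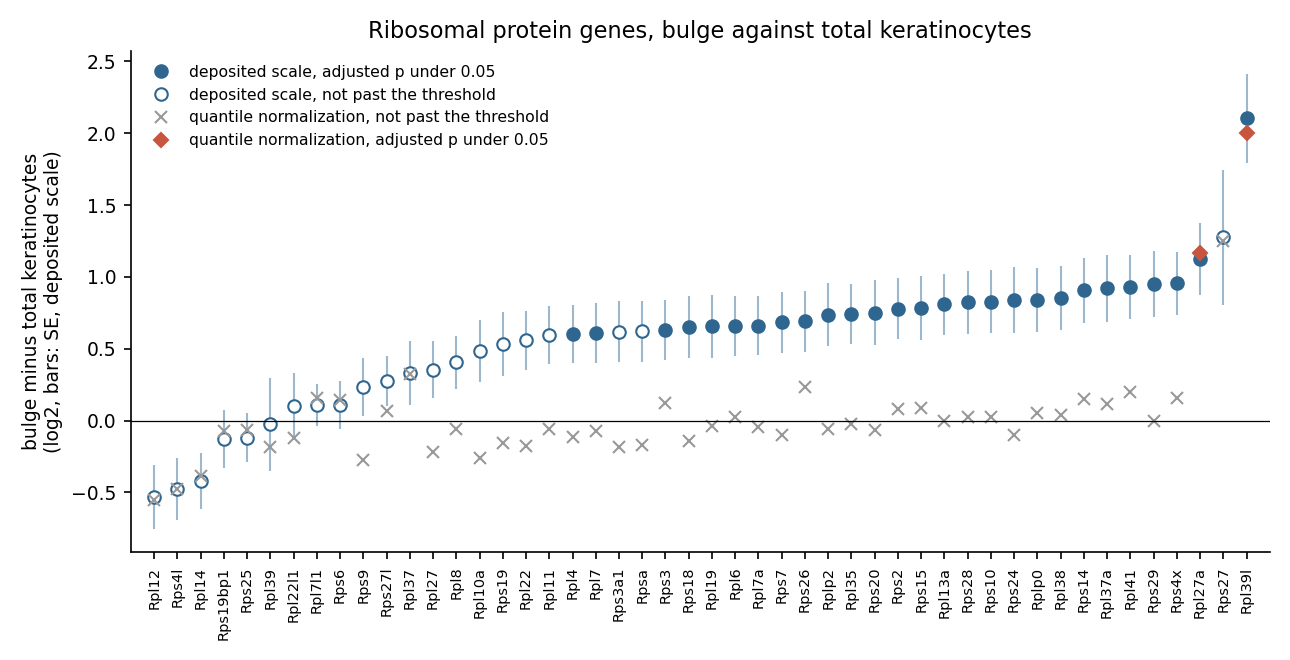
Difference between bulge and total keratinocytes (log2, bulge minus TK) for the 48 ribosomal protein genes tested, on the deposited scale (circles with SE bars, filled where the adjusted p was below 0.05) and after quantile normalization (crosses, and diamonds where the adjusted p was below 0.05). The run of filled circles from Rpl4 to Rps4x moves to near 0 after normalization, and Rpl39l and Rpl27a keep their place.

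Members with roles of their own were split. Rplp0, the base of the stalk that recruits elongation factors, read 16.10, 16.38, 16.76 and 16.30 in bulge and 15.31, 15.56, 15.74 and 15.58 in TK, a difference of 0.84 (SE 0.223, adjusted p = 0.016) that was 0.06 after normalization. Its partner Rplp2 differed by 0.74 (SE 0.219, adjusted p = 0.0274) and by -0.06 after normalization. Rpsa, also known as a laminin receptor precursor, missed the threshold at 0.62 (SE 0.213, adjusted p = 0.0507). Rps6, the target of S6 kinases, varied least of the members tested, with an SD of 0.206 over the 12 arrays. It differed by 0.11 (SE 0.167, adjusted p = 0.669). The next smallest SDs were those of Rps25 (0.227), Rps9 (0.247), Rpl7l1 (0.259), Rpl8 (0.270) and Rpl27 (0.290).

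Probe sets of 1 gene did not always move alike. Of the core probe sets above the pooled median on all arrays, the 61 with a mean log2 signal over 15 were all higher in bulge than in TK, by 0.22 to 0.96. Of the 22 dimmer ones 11 were higher, with a median difference of 0.04. Rpl13a, a large subunit protein, differed by 0.81 and 0.83 on its probe sets with mean log2 signals of 16.27 and 15.39, and by -0.18 and -0.20 on those at 14.23 and 13.31. Rpl41 differed by -0.36 and -0.54 on its 2 probe sets near 8.4 and 8.5. Rps3 differed by 0.63 at 15.40 and -0.13 at 10.82, and Rps9 by 0.23 at 15.20 and -0.37 at 7.45. Of the 56 further probe sets of members, 37 followed the probe set used with r above 0.5 and 6 had r below 0.

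Rpl39l, a paralogue of the large subunit protein Rpl39 best known from the testis, stood apart from the block. It read 9.98, 9.29, 10.19 and 8.99 in bulge, 7.30, 7.06, 6.78 and 7.80 in HG, and 7.59, 6.79, 7.80 and 7.86 in TK. The bulge arrays did not overlap either other fraction, and HG and TK overlapped. Bulge exceeded TK by 2.10 (SE 0.312, 4.3-fold, limma adjusted p = 0.000396, higher in 4 of 4 pairs) and HG by 2.38 (5.2-fold). Both stayed on the same scale after quantile normalization, at 2.00 and 2.45. Rpl39 itself read 7.86, 7.39, 7.27 and 8.37 in bulge, 8.56, 8.26, 8.06 and 8.33 in HG, and 8.29, 6.45, 8.30 and 7.96 in TK. Its bulge minus TK difference was -0.03 (SE 0.324, adjusted p = 0.965), so the paralogue rose without its parent passing the test. Each of these genes was read from 1 dim probe set. Dim probe sets of other core genes, given above, did not always follow the bright ones of the same gene. The fibroblast markers given above were also highest in bulge, and 8 of 9 rose against TK, where 13.8% of all genes rose. Of 9 bulge stem cell markers 8 rose too, as did 3 of 5 endothelial markers. None of these 3 lists had a marker that fell. Rpl39l thus moved in the direction of several lists, and which cells its signal came from was not tested.

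Rpl27a, a large subunit protein, read 11.41, 12.01, 12.30 and 11.15 in bulge and 10.60, 10.68, 10.36 and 10.72 in TK, without overlap. HG read 11.16, 10.52, 11.38 and 11.28, with Het set 2 inside the range of TK and the other 3 arrays inside that of bulge. Bulge exceeded TK by 1.13 (SE 0.250, 2.18-fold, adjusted p = 0.00579) and by 1.17 after normalization. Rps27, a zinc-finger protein of the small subunit, read 8.80, 10.50, 9.01 and 10.39 in bulge and 7.64, 8.28, 7.88 and 9.79 in TK. The groups overlapped, and its difference of 1.28 (SE 0.471, adjusted p = 0.0673) missed the threshold. With an SD of 1.03 over the 12 arrays it varied more than any member but Rpl39l (1.20). Its paralogue Rps27l, a p53 target, differed by 0.28 (SE 0.175, adjusted p = 0.278).

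HG against bulge compares the cells that start a new hair cycle with the niche above them. Only 3 members passed the test. Rpl12 and Rpl14 rose in HG and Rpl39l fell, where 8.44% of all 12589 genes rose and 10.7% fell. The same counts were found after quantile normalization, where 9.28% rose and 12.1% fell. Rpl12, which sits at the foot of the stalk, read 9.80, 9.65, 10.16 and 9.65 in HG and 8.89, 8.55, 8.82 and 8.88 in bulge. The fractions did not overlap, and the difference was 1.03 (SE 0.185, 2.04-fold, limma adjusted p = 0.00512, higher in 4 of 4 pairs). In TK it read 9.90, 9.10, 9.74 and 8.52, with both set 1 arrays high. Rpl12 and Rpl14 were each read from 1 dim probe set, so no other probe set of the gene checks these calls.

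Rpl14, also of the large subunit, read 10.55, 10.82, 9.97 and 10.38 in HG and 9.96, 10.28, 9.61 and 9.50 in bulge. The fractions overlapped, though HG was higher in 4 of 4 pairs, by 0.59 (SE 0.164, 1.51-fold, adjusted p = 0.0345). That call was lost when any of 6 of the 8 arrays was left out, with adjusted p from 0.0695 to 0.167: all arrays but Het HG set 2 and Het bulge set 2. It was also lost with arrays centred on the median or on the core members, with no filter, without a variance trend and without the replicate block. Rps4l, a paralogue of Rps4x, read 9.36, 10.09, 9.20 and 9.43 in HG and 9.01, 9.13, 8.79 and 9.06 in bulge without passing the test (difference 0.52, SE 0.191, adjusted p = 0.0886). Rps27 and Rpl39 did not pass it either, at -1.18 (SE 0.478) and 0.58 (SE 0.258).

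Between HG and bulge all 34 bright core genes had mean differences below 0, with a median of -0.28, and none passed the test. The pairs did not share that direction. The core median was -0.25 on the deposited scale and 0.04 after normalization. By pair it was 0.19 in Het set 1, -0.89 in Het set 2, -0.58 in cKO set 1 and 0.28 in cKO set 2, with 40, 3, 4 and 39 of 42 core genes higher in HG. Sign thus changed between sets in both genotypes, in opposite order.

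**Figure D3:**
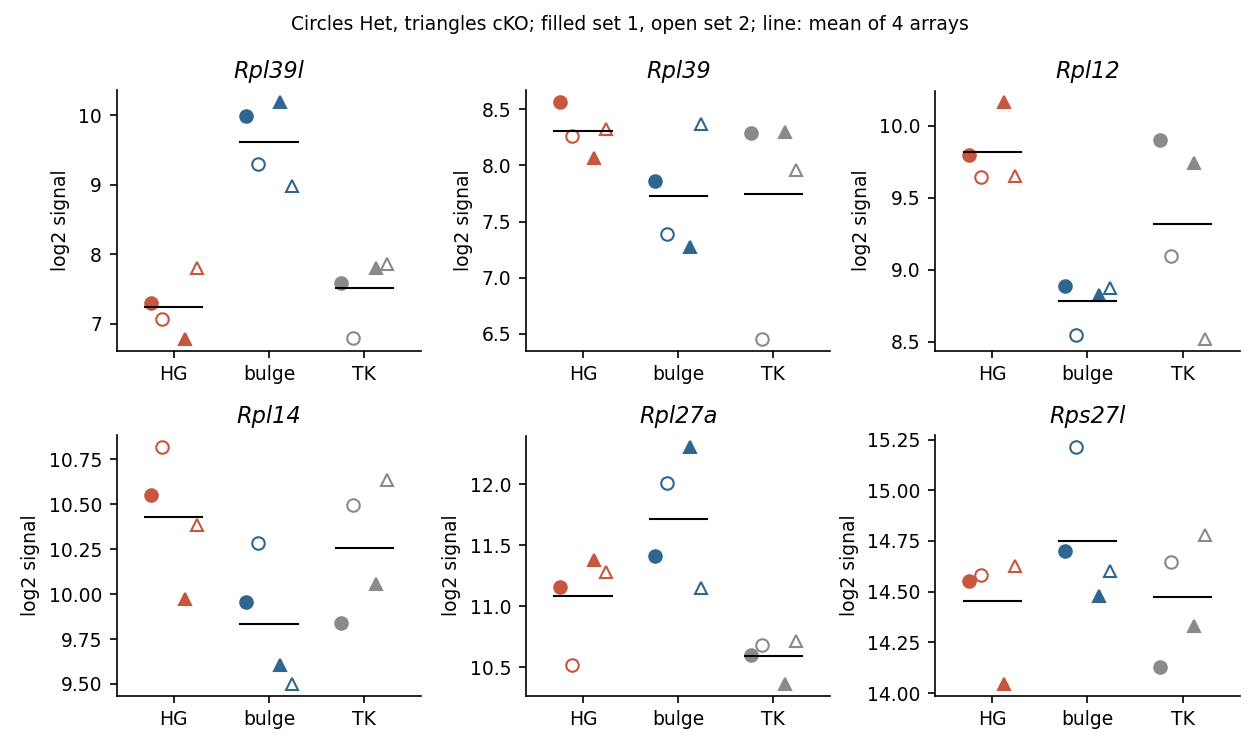
Log2 signal of 6 ribosomal protein genes on each of the 12 arrays by fraction (circles Het, triangles cKO, filled set 1, open set 2, line at the mean of 4 arrays). Rpl39l is higher in bulge on every array, Rpl12 lower in bulge than in HG, Rpl27a higher in bulge than in TK, and Rpl39 and Rps27l overlap between fractions.

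HG against TK gave no called member, where 5.11% of all genes rose and 5.72% fell. At an unadjusted p below 0.05 there were 14 of 48 members, beside 28.2% of all genes. All 42 core genes had differences above 0, with a median of 0.44 on the deposited scale and 0.02 after quantile normalization. No member had all HG arrays above all TK arrays (7.99% of all genes did). Without the activated HG of Het set 2, 22 members rose. No share of all genes was taken for that fit, so the 22 shows only that the count depends on 1 array. The smallest p-values were those of Rps4x (difference 0.57, SE 0.221, limma adjusted p = 0.115), Rpl37a (0.55, SE 0.231) and Rplp0 (0.52, SE 0.223). Het set 2 was also the only pair whose core median was below 0, at -0.11.

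The comparison of cKO with Het gave no called member, nor any called gene among the 12749 tested (0.0%). No member had an unadjusted p below 0.05, where 1099 of all genes did. The core median for cKO against Het was 0.26 on the deposited scale and -0.01 after normalization. It was above 0 in 4 of the 6 pairs, and ran from -0.23 in HG of set 1 to 0.95 in HG of set 2. The smallest p was that of Rpl7l1, a paralogue of Rpl7, at -0.29 (SE 0.136, limma adjusted p = 0.589), followed by Rps14 (0.36, SE 0.191) and Rpl14 (-0.30, SE 0.159). Rpl7 itself was in the block.

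Within HG and bulge alone, these fractions served as the observations of a condition. There cKO against Het in set 1 gave no called member (0.0% of all genes rose or fell), with a core median of 0.15. No member had an unadjusted p below 0.05, beside 2.07% of all genes. In set 2, where Het cells are labelled activated, there was again no called member (0.254% of all genes rose and 0.00794% fell) and the core median was 0.38. Here 3 of 48 members had an unadjusted p below 0.05, beside 17.7% of all genes, and all 3 were lower in cKO: Rpl7l1 (-0.67, SE 0.203, limma adjusted p = 0.157), Rpl14 (-0.61, SE 0.232) and Rps19bp1, which binds RPS19 and is a SIRT1 regulator (-0.58, SE 0.246). After normalization the core medians were -0.03 and 0.00.

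Set 2 against set 1, over all fractions, gave no called member (2.0% of all genes rose and 3.1% fell), with 5 of 48 at an unadjusted p below 0.05 (26.5% of all genes) and a core median of -0.01. The smallest p-values were those of Rps4l (0.49, SE 0.149, limma adjusted p = 0.0744, higher in 6 of 6 pairs), Rps27l (0.37, SE 0.126) and Rpl12 (-0.50, SE 0.175). Set holds both the labelled change of state and any difference of collection, which cannot be told apart. In Het HG and bulge cells, labelled quiescent in set 1 and activated in set 2, the core median was -0.18. No member was called there (0.0635% of all genes rose and 0.643% fell). None had an unadjusted p below 0.05, beside 16.8% of all genes. The 2 fractions opposed each other there, at -0.72 in HG and 0.32 in bulge. In cKO cells they opposed each other the other way, at 0.47 in HG and -0.40 in bulge. No member was called in cKO cells (0.0%) and none had an unadjusted p below 0.05, beside 6.17% of all genes. The set change in cKO minus that in Het had a core median of 0.22 on the deposited scale and 0.01 after normalization. No member was called (0.00794% of all genes rose) and none had an unadjusted p below 0.05, beside 7.28% of all genes. The smallest p there was that of Rpl39 (1.07, SE 0.515, limma adjusted p = 0.705).

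The remaining paralogues lay outside the block. Rpl22l1, which can stand in for Rpl22, read 14.94, 14.69, 14.32 and 15.30 in HG, 14.06, 14.97, 14.63 and 14.59 in bulge, and 13.72, 14.80, 14.51 and 14.83 in TK. Its bulge minus TK difference was 0.10 (SE 0.231), while Rpl22 differed by 0.56 (SE 0.204, limma adjusted p = 0.0648). Rps4l differed by -0.48 (SE 0.216, adjusted p = 0.128), the opposite sign to Rps4x. Rps19bp1 differed by -0.13 (SE 0.201) and Rps19 by 0.53 (SE 0.222), neither past the threshold. Rpl7l1 differed by 0.11 (SE 0.146) and Rpl7 by 0.61 (SE 0.208, adjusted p = 0.0493).

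Genes that build ribosomes did not follow the bright core genes. Their mean log2 signal was lower, from 10.03 in bulge to 11.32 in HG. The 8 dimmer core genes had a median of 0.16 in HG against bulge and 0.04 in bulge against TK. Of 40 ribosome biogenesis genes, 17 rose in HG against bulge and none fell (8.44% and 10.7% of all genes), with a median of 0.66, and 18 rose after quantile normalization (9.28%). In bulge against TK 13 fell and none rose (10.5% and 13.8% of all genes), with a median of -0.38, and after normalization 12 fell and 1 rose (10.9% and 12.2%). Nop56, a box C/D snoRNP core protein, read 11.72, 12.65, 11.68 and 11.82 in HG and 10.59, 10.69, 10.62 and 10.82 in bulge, a difference of 1.29 (SE 0.191, limma adjusted p = 0.00185). Its partner Nop58 differed by 1.21 (SE 0.221). Rrp12, which acts in export of the subunits, had a bulge minus TK difference of -1.10 (SE 0.30). Mki67, a proliferation marker, was between 11.73 and 13.06 in HG and between 9.29 and 10.08 in bulge.

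Of 22 translation initiation factors tested, 4 rose in HG against bulge (8.44% of all genes), led by Eif3a (0.82, SE 0.223, limma adjusted p = 0.0325), and 6 rose after normalization (9.28%). In bulge against TK 1 rose and 4 fell (13.8% and 10.5% of all genes). Of 17 elongation factors and other TOP mRNAs, 4 rose in bulge against TK (13.8% of all genes) and none fell: Vim, Tpt1, Eef1a1 and Fau. Tpt1 and Eef1a1 are classic TOP mRNAs, and Fau encodes the small subunit protein RPS30 fused to a ubiquitin-like protein. Their differences of 1.07, 0.98 and 0.73 were 0.31, 0.20 and 0.12 after normalization. Of those 4 only Vim, also on the fibroblast list, was called then (1.39), and Pabpc1, a poly(A)-binding protein, fell (-0.47, SE 0.154, limma adjusted p = 0.0433). Of 76 mitochondrial ribosomal protein genes, 12 rose in set 2 and none fell (2.0% of all genes rose), with a median of 0.37, and 14 rose after normalization (2.42% of all genes). Their mean log2 signal went from 10.44 to 11.11 in Het TK and 10.70 to 11.09 in cKO TK, which carry no state. In HG it went from 10.81 to 11.33 (Het) and 10.49 to 10.87 (cKO), and in bulge from 10.64 to 10.92 and 10.57 to 10.65. None was called for set within HG and bulge, where 0.0635% of all genes rose in Het and 0.0% in cKO. Between fractions 1 of the 76, Mrps5, rose in HG against bulge, where 8.44% of all genes rose. In bulge against TK 3 of the 76 fell (Mrps5, Mrpl45 and Mrps2), where 10.5% of all genes fell. Both counts lie under those shares. Mrpl17 was among those that rose in set 2, at 0.61 (SE 0.106, limma adjusted p = 0.0226).

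**Figure D4:**
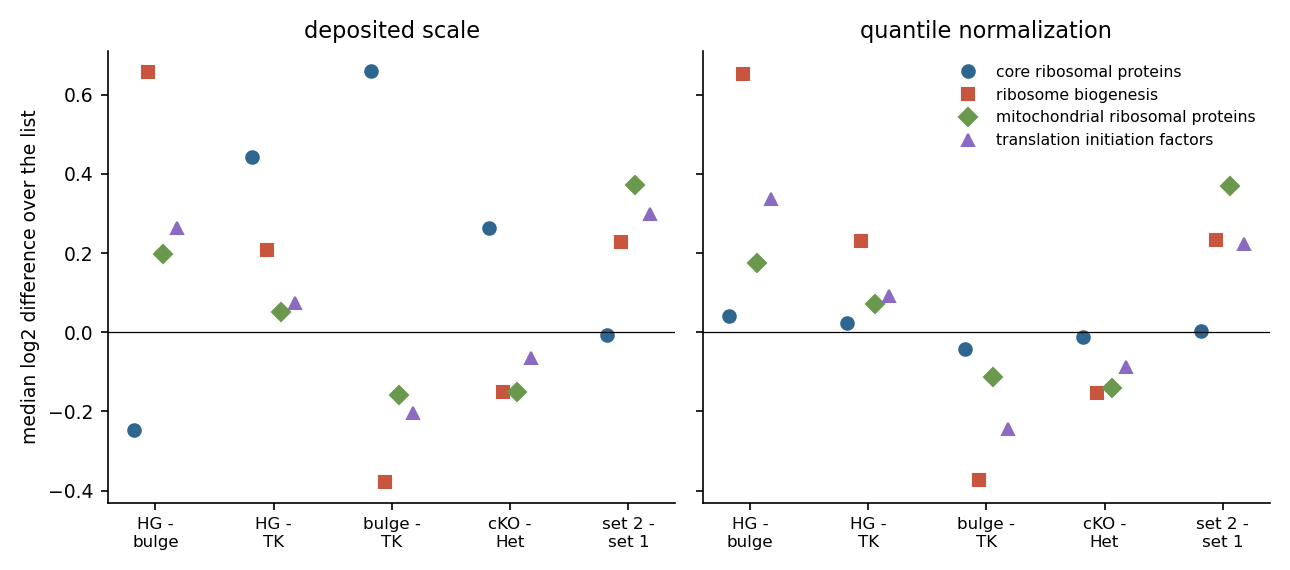
Median log2 difference over the core ribosomal protein genes (circles), ribosome biogenesis genes (squares), mitochondrial ribosomal protein genes (diamonds) and translation initiation factors (triangles) in 5 comparisons, on the deposited scale (left) and after quantile normalization (right). The core median of 0.66 in bulge against TK becomes -0.04, while the biogenesis median in HG against bulge is 0.66 on the deposited scale and 0.65 after normalization.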

How the data were processed

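Total RNA of 12 samples was measured on Affymetrix arrays, 1 array per sample, labelled from 2 ug of RNA per the labels' protocols. The deposited values are MAS5 signal intensities, per the submitters' processing notes, on a linear scale. The trimmed mean of each array without its outer 2% at either end is near 500, so the authors' scaling set every array to 1 level. That scaling cannot correct a shift limited to the brightest probe sets. Precision is limited by how few arrays there are.

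The table has 45101 probe sets. Without its 64 controls, 34945 carry 1 gene symbol, 932 several and 9160 none. Symbols were updated through the gene ID for 34741. Signals below the pooled 25th percentile (20.7) were set to it and log2 taken. Genes needed a signal above the pooled median (84.7) on at least 2 arrays, and the probe set of highest mean stood for a gene. Tests used limma 3.58.1 in R 4.3.3 with a mean-variance trend and Benjamini-Hochberg adjustment over all genes (threshold 0.05), checked on simulated data. Fraction comparisons were blocked on genotype and set, genotype on fraction and set, and set on fraction and genotype. Tests within HG and bulge took these fractions as the observations of a condition, with fraction as a term. The set numbers, shared by the groups, pair HG and bulge by their labelled state. For keratinocytes, which carry no state, the pairing rests on the set number in the sample titles. Their set 1 minus set 2 differences had r = 0.399 between Het and cKO, which does not check their pairing with HG or bulge.

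Named were members with the largest called differences, or the 3 of smallest p where none passed, the paralogues beside their parents, the stalk proteins, Rpsa and Rps6, members at the floor or with disagreeing probe sets, the 6 of largest and smallest SD, and up to 3 genes per pathway list. The members, lists and naming rule were chosen with earlier results of these data known. Alternatives were other scalings, floors, filters, probe set rules, variance models and blocks, and leaving out each array. Promoter sequence is from RefSeq.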

Additional observations from a re-analysis of the deposited data

How the results depend on the processing

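Of the 10 comparisons, 5 kept the same count of called members under all alternatives: cKO against Het, both set contrasts within HG and bulge, their difference, and cKO against Het in set 1 (0 called). For bulge against TK (27) the count was 2 after quantile normalization, 10 (7 rose, 3 fell) with arrays centred on the median, 16 with a floor at the pooled median, 2 with no filter, 17 without probe sets ending in x_at or s_at, and 12 (2 rose, 10 fell) with arrays centred on the core members, an alternative chosen after seeing the data. For HG against bulge (3) it was 1 with no filter and 2 with arrays centred on the median, on the core members or without a variance trend, for HG against TK (0) it was 1 without x_at and s_at probe sets, and for set 2 against set 1 (0) it was 4 with arrays centred on the median. With 1 array left out the counts ran from 2 to 3 for HG against bulge, 0 to 22 for HG against TK, 5 to 34 for bulge against TK, 0 to 3 for set 2 against set 1 and 0 to 1 for cKO against Het in set 2, where the 1 appeared without Het bulge set 2. For set 2 against set 1 the 3 appeared without either HG array of Het. Without the replicate block on set, 2 members were called in HG against bulge (Rpl14 lost its call), 29 in bulge against TK, 0 in HG against TK and 0 in cKO against Het. No share of all genes is set beside the counts in this paragraph, so they show only that a count depends on the setting. Centring on the median shifted the median of all genes in bulge against TK from 0.05 to -0.28 and in HG against TK from 0.04 to -0.22, and centring on the core members shifted them to -0.64 and -0.41.

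The bulge minus TK difference changed sign for 21 of 48 members after quantile normalization and for 21 with arrays centred on the core members. Both scalings bring the core median near 0 by construction (-0.04 and -0.02). Small differences then fall on either side of 0, so these sign changes are no result about the members. Among the 27 called, it did so after quantile normalization for 11: Rpl13a (-0.001), Rpl19 (-0.040), Rpl35 (-0.024), Rpl4 (-0.114), Rpl7 (-0.069), Rpl7a (-0.046), Rplp2 (-0.061), Rps18 (-0.145), Rps20 (-0.068), Rps24 (-0.098) and Rps7 (-0.103). With arrays centred on the core members it did so for 7: Rpl19 (-0.028), Rpl4 (-0.078), Rpl6 (-0.027), Rpl7 (-0.071), Rpl7a (-0.021), Rps18 (-0.031) and Rps3 (-0.052), and without x_at and s_at probe sets for Rpl41 (-0.363). The calls of Rpl39l held under every alternative but no filter in HG against bulge (adjusted p = 0.0669). That of Rpl27a held under every one but centring on the core members (0.44, adjusted p = 0.191), and that of Rpl12 in HG against bulge under all. What lies behind the lost calls and the change of Rpl41 was not tested.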

Other observations

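The Myc family holds transcription factors known to drive ribosome production. Of its 10 genes tested, 2 rose and 1 fell in HG against bulge (8.44% and 10.7% of all genes). Their median difference was -0.195, against -0.022 over all genes, so the fractions differed at single members only. Mycn rose in HG against bulge by 2.50 (SE 0.298, limma adjusted p = 0.000599) and Mycl by 2.38 (SE 0.340), while Mxi1, a Myc antagonist, was lower in HG (-0.90, SE 0.159). Mycn read 9.66, 12.01, 9.41 and 10.20 in HG and 7.15, 8.37, 7.21 and 8.54 in bulge, in the order Het set 1, Het set 2, cKO set 1 and cKO set 2. The fractions did not overlap, and the activated HG of Het set 2 was highest. After quantile normalization the difference was 2.49. Myc itself was lower than in TK in both HG (-1.02, SE 0.231) and bulge (-0.70, SE 0.231), the latter not past the threshold after normalization.

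A dim probe set of Rps24, with a mean log2 signal of 9.22, read 10.19, 9.64, 10.12 and 9.82 in HG, 9.37, 8.36, 9.64 and 10.03 in bulge, and 9.32, 8.11, 8.62 and 7.43 in TK. HG exceeded TK on all arrays (7.99% of all genes did on the probe set used), with means differing by 1.57, while the brightest probe set of the gene differed by 0.51. This is 1 of 6 probe sets of Rps24, and its difference was not tested. Another dim one read 4.80 to 6.82 in HG and 4.37 to 6.46 in TK, with overlap.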
